A study of Homo sapiens with 8 samples.

Results

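The E2F transcription factors and the retinoblastoma (RB) proteins that hold them were followed here by RNA-seq through 4 related human mammary epithelial cell lines, M1 to M4. The 10 genes were E2F1 to E2F8, RB1 and RBL1, 10 of the 56632 genes in the deposited table, and all 10 were found there by their Ensembl identifiers. They were picked from the family by name, with their counts in these libraries already known, so the levels and fold changes given for them are descriptions and carry no p-value. M1 was MCF10A, an immortalized, non-tumorigenic mammary epithelial line. M2, the line MCF10AT1k.cl2, is MCF10A that received the T24-HRAS oncogene and was selected as a graft in mice. Tumours that M2 cells formed in mice gave M3 (MCF10Ca1h) and M4 (MCF10CA1a.cl1), so both descend from M2. Each line contributed 2 biological replicates of poly A+ RNA, taken after 8 days as acini in Matrigel with 2% horse serum. M1 and M2 received EGF at 10 ng/ml and M3 and M4 received none, so the line and the EGF cannot be told apart when M3 or M4 is set against M1 or M2. Each line is a single cell line, and 2 cultures of it show the spread between cultures and not between independent transformations.

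E2F proteins bind DNA at the promoters of genes for DNA replication and mitosis. E2F1, E2F2 and E2F3 are known mainly as activators, E2F4 and E2F5 as repressors that work with a pocket protein, E2F6 as a repressor that no pocket protein holds, and E2F7 and E2F8 as atypical repressors that bind DNA without a DP partner. The pocket proteins are RB1, RBL1 (p107) and RBL2 (p130). In resting cells they hold E2F proteins and silence the targets, and cyclin-dependent kinases phosphorylate them late in G1, which frees the activators. Several E2F genes and RBL1 are themselves E2F targets, and E2F7 and E2F8 are known to switch off E2F1 late in the cycle.

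Library totals ran from 69669970 to 107350344 expected counts. A gene was called where edgeR's quasi-likelihood test, adjusted by the Benjamini-Hochberg method over the 18431 genes tested, gave an adjusted p below 0.05 and the difference was more than 2-fold. All 10 E2F and RB genes passed the filter on low counts. The pathway lists set beside them below were also chosen with earlier results of these data known. Their adjusted p-values and counts of called genes are therefore descriptions too and not independent tests. The expression table published with the study assigns the libraries labelled M1 replicate 2 and M2 replicate 1 each to the other line, against the deposited labels. The labels were used here. For comparisons that rest on M1 or M2, a selection of E2F and RB gene values is also given with the 2 libraries exchanged, or with both left out. Other values moved too. On the labels, the Spearman correlation across 13495 genes between the 2 libraries of a line was 0.971 (M1), 0.998 (M2), 0.977 (M3) and 0.986 (M4). The chi-square of these counts per degree of freedom, larger where 2 libraries differ more, was 283 (M1), 6.95 (M2), 361 (M3) and 136 (M4). The M2 pair was thus far closer than the others, and the fit takes its spread from all 4 lines, this pair included. HRAS itself stood at 154 and 139 CPM (counts scaled to the library total) in the M1 libraries and 160 and 154 in the M2 libraries. It stood at 269 and 327 CPM in M3 and 335 and 352 in M4. Among the markers, KRT5, KRT17, KRT8 and KRT18 were abundant in all 8 libraries, as fits the labelled epithelial type. KRT14, of the same list, ran from 8.26 to 99.7 CPM in M1, M2 and M3 and stood at 2.3 and 2.74 in M4. Of the markers of other cell types, CD3E, COL1A2 and ADIPOQ were at 0 in every library. In contrast, COL1A1 reached 25.5 CPM (M1), DCN 60.2 (M2) and CD68 51.4 (M4). In such bulk samples, fewer cells of a type and less RNA per cell cannot be told apart.

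Since E2F proteins act on promoters and several of these genes are their own targets, the promoters of the 3 genes that passed the call threshold in some comparison are shown first. They are the last 150 bases before the start of E2F1, E2F7 and RBL1, read 5′ to 3′ on the strand of the gene, from RefSeq promoter windows of build GRCh38.p14. Each window also matched GRCh37, the build of the counts, at a single place, ending at the annotated gene start. E2F1 lies there at chr20:32274192-32274341, E2F7 at chr12:77459350-77459499 and RBL1 at chr20:35724401-35724550, all on the minus strand. Capitals mark an E2F word, here TTTCCCGC, TTTCGCGC, TTTGCCGC or TTTGGCGC on either strand.
E2F1: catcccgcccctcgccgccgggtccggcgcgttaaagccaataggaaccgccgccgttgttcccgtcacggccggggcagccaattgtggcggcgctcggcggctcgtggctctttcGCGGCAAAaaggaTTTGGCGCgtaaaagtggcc
RBL1: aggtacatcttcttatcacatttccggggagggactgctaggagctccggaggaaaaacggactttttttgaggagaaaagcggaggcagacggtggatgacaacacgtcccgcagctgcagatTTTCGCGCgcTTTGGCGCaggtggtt
E2F7: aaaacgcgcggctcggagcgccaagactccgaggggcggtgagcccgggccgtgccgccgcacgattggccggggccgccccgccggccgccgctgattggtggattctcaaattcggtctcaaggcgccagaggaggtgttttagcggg
E2F1 and RBL1 each held 2 E2F words that do not overlap, all within 33 bases of the start, and the E2F7 window held none of these letters.

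The wider search covered 250 bases before to 50 after each start. Of the 8 E2F and RB genes with a promoter entry, 4 held an E2F word: E2F1, E2F2, E2F3 and RBL1. The word in E2F2 began 42 bases before the start, and that in 1 of the 2 E2F3 entries began 53 bases before it. E2F4, E2F6 and E2F7 held none. The entry of RB1 is an internal start and also held none. Over all 27305 genes with an entry, 3.99% held an E2F word. The share was 12 of 20 among the G1/S target genes listed for comparison and 1 of 11 among the G2/M target genes. The CHR word, TTTGAA or TTCGAA on either strand, showed the other order, with 8 of 11 G2/M targets and 3 of 20 G1/S targets against 19.5% of all genes. A match of letters is a description of the window and not a measurement of binding.

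On the labels, the log2 fold change against M1 was positive for 10, 6 and 9 of the 10 genes in M2, M3 and M4. Against M1, 2 of the 10 genes were past the call threshold in M2 (E2F7 and RBL1), 2 in M3 (E2F7 and RBL1) and 3 in M4 (E2F1, E2F7 and RBL1), where 3.37%, 13.5% and 20.7% of all genes tested were called. These 3 comparisons share the M1 libraries. Between M3 and M2, no member was past the threshold by edgeR, with 4.15% of all genes called, although 1 had an unadjusted p under 0.05 and DESeq2 placed that gene, E2F2, past it and lower in M3. Between M4 and M2 the only member past it was E2F7, with 13.9% of all genes called. Between M4 and M3 there were 2, E2F1 and E2F7, with 10.3% of all genes called. All members past the threshold by edgeR were higher in the line named first. The median log2 fold change of the 10 genes against M1 was 0.28 in M2, 0.09 in M3 and 0.42 in M4, beside all-gene medians between -0.035 and -0.004 over the 6 comparisons. Since the list was drawn up with these data known, nothing is read from the counts.

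**Figure D1:**
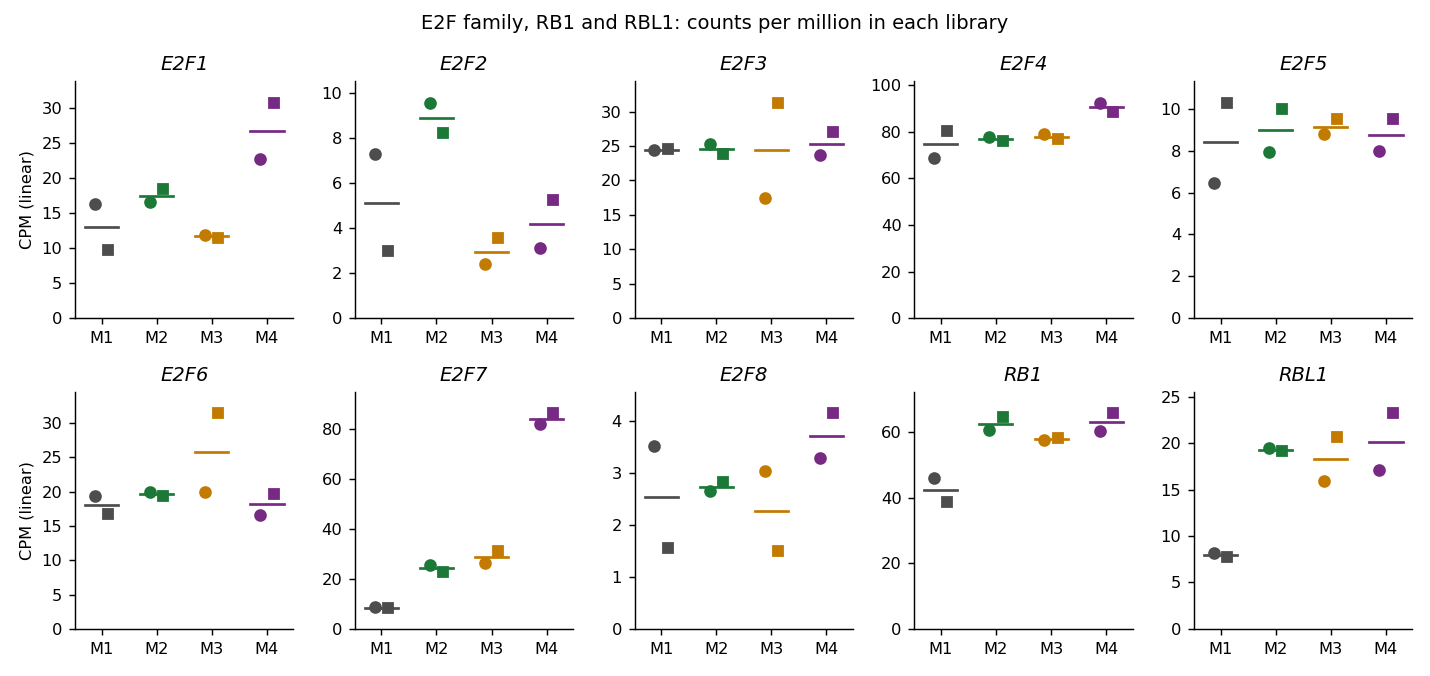
CPM on a linear axis from 0 for each of the 10 genes, with 1 panel per gene, a circle for replicate 1, a square for replicate 2 and a line for the mean of the 2 libraries of each cell line. E2F7 climbed from 8.71 and 8.36 in M1 to 82 and 86.3 in M4, RBL1 was lowest in the M1 libraries, and E2F3 and E2F5 overlapped between all lines.

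Positions of genes are on GRCh37. E2F7 (ENSG00000165891, chr12:77415028-77459349, minus strand), which encodes an atypical repressor, showed the widest range. It measured 8.71 and 8.36 CPM (M1), 25.6 and 22.7 (M2), 26.4 and 31 (M3) and 82 and 86.3 (M4). No lines overlapped, and M2 and M3 lay closest. M4 was 9.86-fold above M1, a log2 fold change of 3.3 with a standard error of 0.156 and a 95% interval of 2.94 to 3.66. The log2 fold change was 1.5 (SE 0.147) for M2 and 1.75 (SE 0.148) for M3 against M1. M4 stood 3.48-fold above M2 and 2.93-fold above M3, whereas M3 and M2 differed by 0.25, with an interval of -0.08 to 0.58. With M1 replicate 2 and M2 replicate 1 exchanged, M3 and M4 against M2 went to 0.89 and 2.44 on the log2 scale. With the 2 libraries exchanged, the difference between M2 and M1 went to -0.15, that between M3 and M1 to 0.74 and out of the calls, and that between M4 and M1 to 2.29, still past the threshold. With both left out it was 1.38 for M2, 1.72 for M3 and 3.27 for M4 against M1. Only the first of these was then short of the threshold. The call in M2 was also lost without either M2 library.

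E2F8 (ENSG00000129173, chr11:19245610-19263167, minus strand), the other atypical member, had the lowest mean CPM of the 10 genes in every line. Its levels were 3.53 and 1.55 CPM (M1), 2.65 and 2.83 (M2), 3.04 and 1.49 (M3) and 3.28 and 4.15 (M4), resting on 127 to 372 counts per library. The 2 libraries of M1 and the 2 of M3 lay further apart than the line means. Its 95% interval for M4 against M1 ran from -0.57 to 1.66 on the log2 scale. Its log2 fold change in M2 against M1 went from 0.11 to -0.5 with the libraries exchanged. Of the pair of atypical repressors, E2F7 was thus 9.86-fold and E2F8 1.46-fold higher in M4 than in M1, the latter within the spread.

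Among the activators, E2F1 (ENSG00000101412, chr20:32263283-32274191, minus strand) was highest in M4. It measured 16.3 and 9.73 CPM (M1), 16.6 and 18.4 (M2), 11.9 and 11.5 (M3) and 22.7 and 30.8 (M4). The M4 libraries lay above all 6 others, and the M3 libraries fell between the 2 M1 libraries. M4 was 2.29-fold above M3 (log2 1.19, SE 0.266) and 2.06-fold above M1 (log2 1.04, SE 0.265). The value against M1 sat just past the threshold. It was 0.72 without M1 replicate 2, 0.7 with the libraries exchanged, and no longer called in either case, nor without M4 replicate 2 or when only M1 and M4 were fitted. Against M3, E2F1 stayed past the threshold when either M1 library was left out and fell short when any of the other 6 was left out or the libraries were exchanged.

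E2F2 (ENSG00000007968, chr1:23832930-23857725, minus strand) took another course and was, on the labels, highest in M2. It measured 7.28 and 2.98 CPM (M1), 9.57 and 8.22 (M2), 2.39 and 3.54 (M3) and 3.12 and 5.23 (M4). The M2 libraries were above all others, and the M1 range overlapped those of M3 and M4. M3 was at 0.333 of the M2 level, a log2 fold change of -1.59 (SE 0.468) with an interval of -2.67 to -0.5, and M4 at 0.469 of it, at -1.09 (SE 0.461). Neither passed the threshold in the fit used here. The first passed it with DESeq2, with no filter on low counts, when only M2 and M3 were fitted, and without either M1 library. With the libraries exchanged, M3 and M4 differed from M2 by -0.92 and -0.42. E2F2 was then highest in M1, with M2, M3 and M4 at -0.59, -1.51 and -1.01 against it.

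E2F3 (ENSG00000112242, chr6:20402110-20493945, plus strand) was level. Its line means were 24.4, 24.5, 24.4 and 25.3 CPM from M1 to M4, and the interval for M4 against M1 was -0.53 to 0.64 on the log2 scale. The M3 libraries alone stood apart from each other, at 17.5 and 31.3 CPM, and bracketed all other libraries. The 3 activators therefore showed a peak in M4 (E2F1), a peak in M2 that rests on the labels of the 2 doubted libraries (E2F2) and no difference beyond the spread (E2F3).

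The repressor E2F4 (ENSG00000205250, chr16:67226058-67232821, plus strand), the E2F usually most abundant in mammalian cells, was the steadiest of the larger genes. It stood between 68.7 and 80.3 CPM in the 6 libraries of M1, M2 and M3 and at 92.4 and 88.2 CPM in M4. M4 did not overlap the other lines, but its distance from M1 was 1.21-fold with an interval of -0.02 to 0.58 on the log2 scale. E2F5 (ENSG00000133740, chr8:86089389-86129387, plus strand) ranged from 6.48 to 10.3 CPM, and the lowest and the highest of the 8 values both came from M1. Its exons share 991 bases, 16.5% of their length, with RBIS on the opposite strand, and whether the counting used the strand is not given in the sources used here. Reads of the 2 genes may therefore not be separable. The log2 fold change of E2F5 in M2 against M1 went from 0.09 to 0.49 with the libraries exchanged. E2F6 (ENSG00000169016, chr2:11584501-11606303, minus strand), the repressor that works without pocket proteins, stood between 16.6 and 20 CPM in 7 libraries and at 31.4 in M3 replicate 2. The M3 mean was 25.7 CPM, and M3 against M1 had a log2 fold change of 0.51 with an interval of -0.02 to 1.04.

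Of the pocket proteins, RBL1 (ENSG00000080839, chr20:35624752-35724400, minus strand) separated M1 from the other lines. RBL1 encodes p107, which pairs chiefly with E2F4 and E2F5 and whose gene is an E2F target with the promoter shown above. It measured 8.12 and 7.79 CPM (M1), 19.5 and 19.1 (M2), 15.9 and 20.6 (M3) and 17.1 and 23.2 (M4). Both M1 libraries lay below all 6 others, and M2, M3 and M4 overlapped one another. The distance from M1 was 2.43-fold in M2 (log2 1.28, SE 0.21), 2.29-fold in M3 (log2 1.2, SE 0.209) and 2.53-fold in M4 (log2 1.34, SE 0.21). Between M2, M3 and M4 the log2 fold changes were -0.08, 0.06 and 0.14, each with an interval that included 0. With the libraries exchanged, M3 and M4 against M2 went to 0.44 and 0.58, and the values against M1 became -0.04, 0.4 and 0.54. With both left out they were 1.24, 1.17 and 1.31, of which the last alone was past the threshold. The call in M2 was also lost without M1 replicate 1 or either M2 library.

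RB1 (ENSG00000139687, chr13:48877880-49173572, plus strand), the retinoblastoma gene itself, was transcribed in every library and differed less between the lines. It measured 46.1 and 38.7 CPM (M1), 60.7 and 64.6 (M2), 57.5 and 58.4 (M3) and 60.5 and 65.8 (M4). The M1 libraries were the lowest 2 of the 8. The log2 fold change against M1 was 0.56 (interval 0.24 to 0.88) in M2, 0.45 (0.13 to 0.77) in M3 and 0.58 (0.26 to 0.89) in M4, all under 2-fold. The exchange took these to -0.05, 0.12 and 0.24, and with both left out 0.49, 0.33 and 0.45. RBL2 (p130), the pocket protein known for quiescent cells, ran the other way and is not among the 10. It stood at 77.6 and 66.9 CPM (M1), 54.1 and 53.7 (M2), 57.4 and 49 (M3) and 48.6 and 47.7 (M4). Its log2 fold change for M4 against M1 was -0.58 (edgeR quasi-likelihood, Benjamini-Hochberg adjusted p = 0.0171), under 2-fold and so not called, and adjusted p was 0.128 in M2 and 0.059 in M3. Under the exchange, the log2 fold change of RBL2 was -0.45 in M4 (adjusted p = 0.243) and -0.13 in M2.

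**Figure D2:**
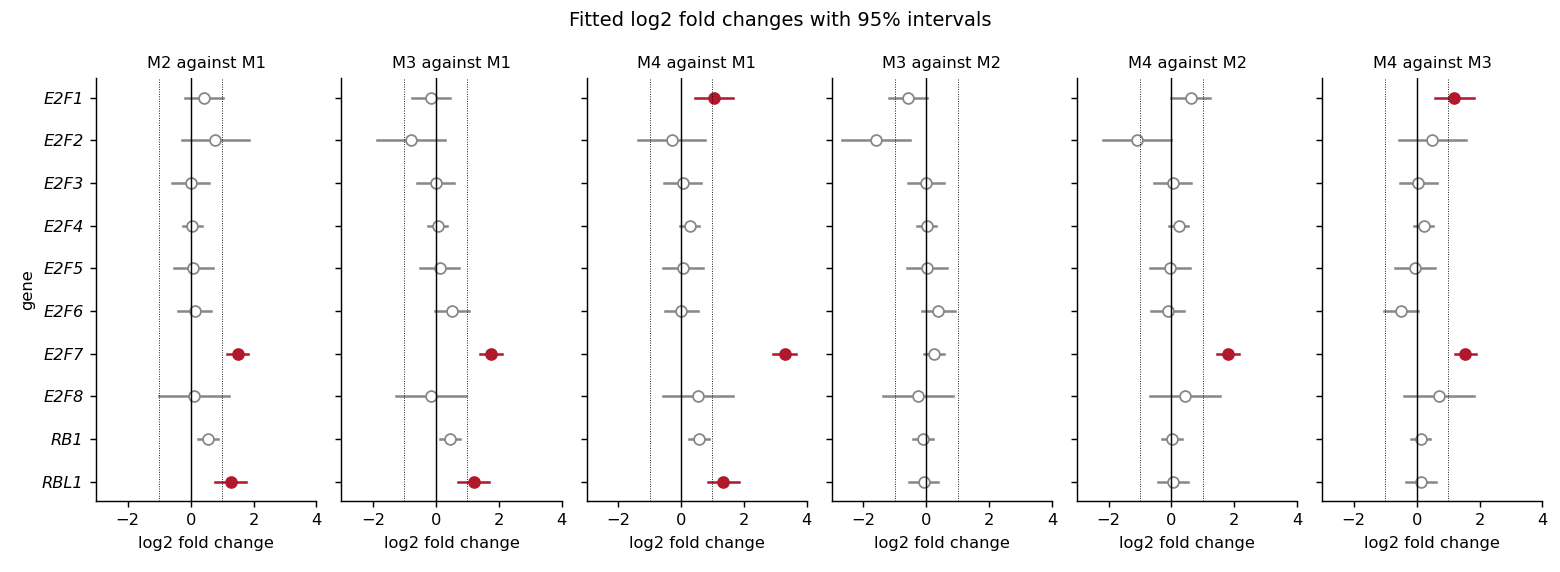
Fitted log2 fold change of each gene (points) with its 95% interval (bars) in the 6 comparisons. Filled red points are past the call threshold, open grey points are not, and dotted lines mark a 2-fold difference. E2F7 is past it in 5 of the 6 panels, and E2F3 and E2F5 lie between -0.06 and 0.12 in all 6.

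To compare levels between genes, CPM was divided by the length of each gene's merged exons. On this scale (CPM per kb) E2F4 was the highest of the 10 genes in every line, with means of 20.7, 21.4, 21.6 and 25.1 from M1 to M4, and did not overlap the next gene in any line. RB1 held rank 2 in M1, M2 and M3 (6.59, 9.74 and 9 CPM per kb). In M1, RB1, E2F1, E2F3 and E2F6 each overlapped their neighbour in the order. E2F7 moved furthest in rank, from rank 7 in M1 (1.36 CPM per kb) to rank 6 in M2 (3.84), 5 in M3 (4.56) and 2 in M4 (13.4), where it overlapped neither E2F4 nor the E2F1 that followed it at 9.94. E2F7 overlapped both of its neighbours in M1, E2F5 and RBL1, and both in M3, E2F3 and E2F1. E2F8 and E2F2 filled the last places in M3 and M4 and overlapped there.

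The make-up of the family within each library followed from these levels. The E2F7 share of the summed E2F level was 3.53% and 3.43% (M1), 8.98% and 8.05% (M2), 10.1% and 10.5% (M3) and 22.3% and 21.7% (M4). E2F7 stood at 0.115 and 0.15 of the summed activators E2F1, E2F2 and E2F3 in M1, and at 0.96 and 0.779 of them in M4. The activators themselves took 19.9% to 30.8% of the sum across the 8 libraries, with no order by line. E2F4 took 48.7% and 57.6% in M1 and 43.9% and 38.8% in M4. Among the 3 pocket proteins the ratio of RBL1 to RBL2 was 0.143 and 0.159 in M1 and 0.378 to 0.662 in the other 6 libraries, without overlap. Exchanged, the M1 pair would hold E2F7 shares of 3.53% and 8.98% and RBL1 to RBL2 ratios of 0.143 and 0.491, and both would overlap M2. RBL2 made up 52.9% and 53% of the pocket sum in M1, and RB1 took the largest share in the other lines, with 47.8% to 51.5%.

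**Figure D3:**
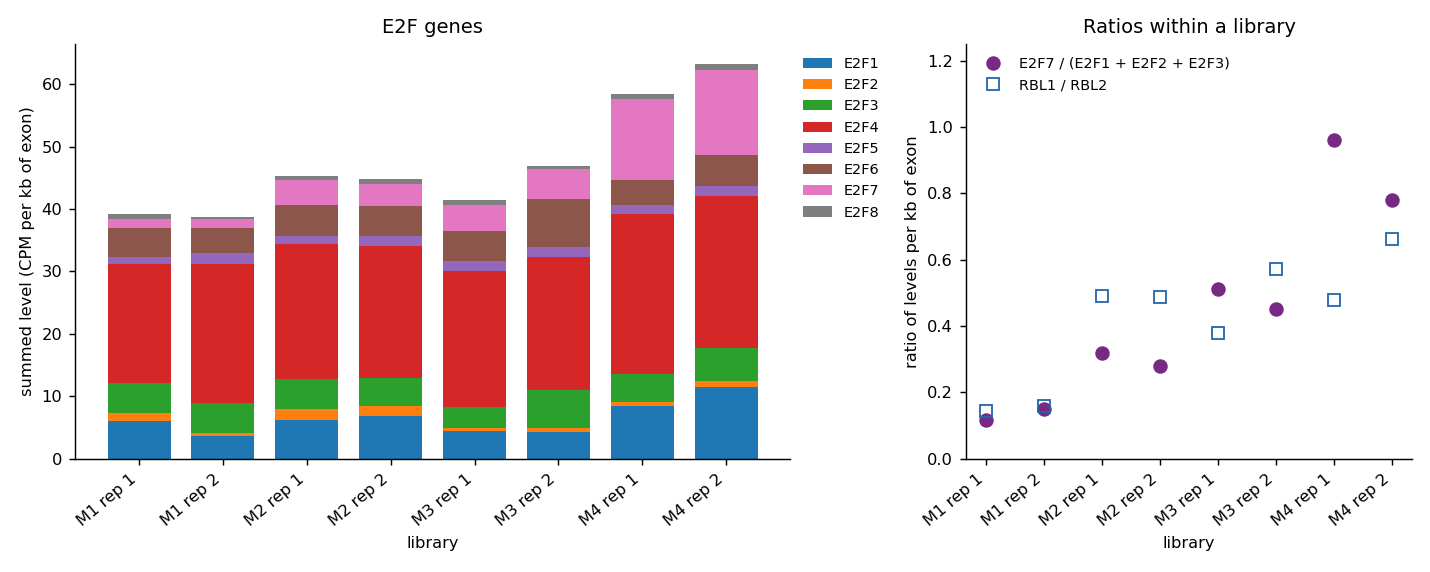
Left, summed level of the 8 E2F genes in each library in CPM per kb of merged exon, stacked by gene. Right, 2 ratios of such levels within each library: E2F7 over the summed activators (filled circles) and RBL1 over RBL2 (open squares). The E2F7 segment is largest in the M4 bars, and both ratios are lowest in the 2 M1 libraries.

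The genes around E2F7 did not share its differences. The 27 other genes tested that reach within 5 Mb of E2F7 had median log2 fold changes of -0.04, 0.07 and -0.03 in M2, M3 and M4 against M1. E2F1 and RBL1 share a stretch of chromosome 20, where the neighbours' medians against M1 lay between -0.33 and -0.2, opposite to the sign of RBL1. The RB1 neighbours had medians between -0.13 and -0.01.

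Other genes tracked single members across the 8 libraries, given here as a description since those points share lines and depth. Among genes with a mean of at least 10 CPM, the log2 level of E2F1 correlated most with SLC10A3 (Pearson r = 0.973), BTRC (0.969), TRIM16 (0.967), RAB18 (0.963) and TRAM1 (0.962). BTRC encodes a substrate receptor of an SCF ubiquitin ligase. For RB1 the closest were MORF4L2 (0.982), PLPBP (0.981), BRCA1 (0.981), CENPK (0.979) and AIMP1 (0.975), of which BRCA1 acts in DNA repair and CENPK at the kinetochore. E2F8 was closest to GLRX (0.983), SDCBP (0.956), FKBP1A (0.928), GLTP (0.918) and SNX5 (0.914). These are the highest of 9371 genes compared, or 9372 for E2F8. The E2F8 values differed within M1 (3.53 and 1.55 CPM) and within M3 (3.04 and 1.49) by more than its line means, so its matches follow single libraries as well as lines.

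The DNA-binding partners of the E2F proteins moved little. TFDP1 measured 152 and 120 CPM in M1 and 149 to 208 CPM in the other lines, and TFDP2 ran from 31.6 to 57.2 CPM. None of the 3 partners and pocket genes tested (TFDP1, TFDP2, RBL2) was called in any of the 6 comparisons by edgeR or DESeq2. Against M1, 3, 2 and 2 of them had an unadjusted p under 0.05 in M2, M3 and M4, and 1, 0 and 1 did between M3 and M2, M4 and M2, and M4 and M3. TFDP3 was at or near 0 counts in every library.

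MYBL2 and FOXM1, which take over from the RB family on the MuvB core to drive mitotic genes, rose with the step out of M1. MYBL2 measured 34.7 and 27.9 CPM in M1 and 79.1 to 125 CPM in the other 6 libraries. Its log2 fold changes were 1.65 (SE 0.231, adjusted p = 0.0108) in M2, 1.66 (SE 0.231, adjusted p = 0.0033) in M3 and 1.71 (SE 0.231, adjusted p = 0.00184) in M4. FOXM1 measured 42 and 26.4 CPM in M1 and 93.7 to 120 CPM elsewhere, and its log2 fold changes were 1.52, 1.6 and 1.69 (adjusted p = 0.0126, 0.00342 and 0.00173). LIN9, a MuvB subunit, rose in M2 (1.11, adjusted p = 0.0292) and M3 (1.55, adjusted p = 0.00312). With the libraries exchanged none of the 7 MuvB-related genes was called against M1 in any line, and in M2 none was without either M2 library. LIN9 in M2 was also lost without either M1 library or M4 replicate 2.

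Of 10 genes for G1 cyclins, their kinases and regulators, 2 rose in M2, 5 in M3 and 3 in M4 against M1, and none was called lower. Of all genes tested, 3.37%, 13.5% and 20.7% were called in these comparisons. CCND3, a D cyclin named after its values were seen, was lower than in M1 by less than 2-fold and so not called. Its log2 fold changes were -0.77 in M3 (adjusted p = 0.00819) and -0.69 in M4 (adjusted p = 0.00829). With the libraries exchanged they were -0.75 and -0.67. CCND1, the D cyclin that starts RB phosphorylation, measured 61.3 and 76.3 CPM in M1 and 75.4 and 78.7 in M2. It reached 124 and 175 CPM in M3 and 156 in both M4 libraries, with log2 fold changes against M1 of 1.12 (adjusted p = 0.00716) and 1.18 (adjusted p = 0.00377). CDC25A, the phosphatase that activates CDK2, rose in all 3 (1.12, 1.4 and 1.52, adjusted p = 0.037, 0.00629 and 0.00295), and CDK2 rose by 1.05 in M3 and in M4 (adjusted p = 0.00247 and 0.00145). CCNE1 measured 7.22 to 12 CPM in all lines and was not called. CCNE2 rose in M2 alone by the call (1.56, adjusted p = 0.0455), with 5.37 and 5.41 CPM in M1, 16.8 and 14.9 in M2 and 5.48 to 11.9 in M3 and M4. CCND2, another D cyclin, was at 0 counts in every library except those of M3, where it stood at 13.6 and 9.37 CPM, at least 315-fold above M1 with 3 counts per library taken as the floor. With the libraries exchanged, 0, 1 and 1 of the 10 were called in M2, M3 and M4 against M1. CCNE2 and CDC25A in M2 were also both lost without any 1 of the M1, M2 or M4 libraries. The 5 calls in M3 went to 2 without M3 replicate 2, CCND1 and CDC25A being among those lost, and CCND1 in M3 was lost without M1 replicate 1 too, and CDK2 in M3 without M3 replicate 1. SKP2, which marks CDKN1B for destruction, fell in M4 against M2 (-1.27, adjusted p = 0.00402), a call lost with the exchange.

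Of all genes tested, 20.7%, 13.9% and 10.3% were called in M4 against M1, M2 and M3. Of 5 inhibitors of the G1 kinases tested, 3, 2 and 2 fell in these comparisons. The remaining pair, CDKN1C and CDKN2D, named after their values were seen, were not called in the fit used here. CDKN2D stood at a mean of 3.9 CPM in M1, 2.96 in M2 and 7.33 in M4, and DESeq2 called 4 of the 5 inhibitors between M4 and M2. CDKN1A (p21) measured 311 and 228 CPM (M1), 347 and 342 (M2), 302 and 264 (M3) and 116 and 94.2 (M4). M4 was lower than M1 by 1.36 on the log2 scale (-1.36, adjusted p = 0.00216), than M2 (-1.72, adjusted p = 0.00154) and than M3 (-1.43, adjusted p = 0.00497), and all 3 calls held with the libraries exchanged. CDKN1B (p27) fell in M4 against M1 (-1.2, adjusted p = 0.00265), a call lost with the exchange. CDKN2C (p18) was higher in M3 than in M1 (1.01, adjusted p = 0.0261) and lower in M4 than in M1, M2 and M3 (-1.18, -1.64 and -2.19, adjusted p = 0.011, 0.00466 and 0.00336). The call of CDKN2C in M3 was lost without M1 replicate 2 or any 1 of the M2 or M3 libraries and with the libraries exchanged, and that in M4 against M1 without M4 replicate 1. CDKN2A (p16) and CDKN2B (p15) were at 0 counts in all 8 libraries, and MCF10A is known to lack this locus.

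Many listed replication and mitosis targets of E2F rose against M1. In the fit used here none of them was called between M2, M3 and M4. Of 23 replication genes tested (G1/S targets), 14 rose in M2, 9 in M3 and 11 in M4, and none was called lower. The share of all genes called was 3.37%, 13.5% and 20.7%. In M4, 1 of the 23 was lower than in M1 with an unadjusted p under 0.05. Median log2 fold changes of the 23 were 1.08, 0.9 and 0.94. RRM2, a ribonucleotide reductase subunit, measured 75.8 and 43 CPM (M1), 199 and 201 (M2), 211 and 249 (M3) and 197 and 237 (M4). Its log2 fold changes were 1.75, 1.96 and 1.87 (adjusted p = 0.013, 0.00293 and 0.00209). ORC1 (1.47 in M2, adjusted p = 0.0105), TK1 (1.66 in M3, adjusted p = 0.00146) and CDC6 (1.98 in M4, adjusted p = 0.000278) were also among the 3 largest changes of their comparison. Between M3 and M2, M4 and M2, and M4 and M3 no G1/S target was called by edgeR or DESeq2, while 4, 10 and 4 had an unadjusted p under 0.05 and the libraries of the lines did not overlap for 18, 19 and 10 of the 23.

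The 14 mitotic genes (G2/M targets) went further. They rose in number 12, 14 and 12 in M2, M3 and M4 against M1, beside the same all-gene shares, with medians of 1.56, 1.73 and 1.44. TTK, a spindle checkpoint kinase, measured 14.5 and 11.1 CPM in M1 and 44.1 to 65.5 CPM in the other 6 libraries, and rose by 1.89, 2.22 and 1.99 (adjusted p = 0.00609, 0.000792 and 0.000588). MKI67, the proliferation marker, measured 114 and 57.1 CPM (M1), 236 and 221 (M2), 212 and 292 (M3) and 311 and 541 (M4). It was called in M3 (1.56, adjusted p = 0.0247) and M4 (2.32, adjusted p = 0.00422) and not in M2 (1.42, adjusted p = 0.0743), and the call in M3 was lost without M1 replicate 2, M3 replicate 2 or either M2 library. CDC20 and CCNA2 (1.84 and 1.79 in M2, adjusted p = 0.00605 and 0.00994), BIRC5 (1.98 in M3, adjusted p = 0.000597) and AURKB (1.65 in M4, adjusted p = 0.00166) completed the largest changes. None was called between M3 and M2, M4 and M2, or M4 and M3 by edgeR or DESeq2, and 2, 7 and 3 had an unadjusted p under 0.05, while 1 was called between M4 and M2 without M4 replicate 2 and between M4 and M3 without M3 replicate 2 or M4 replicate 2. With the 2 libraries exchanged, no G1/S or G2/M target was called against M1 in any line. With both left out, the counts were 0, 8 and 9 for the G1/S and 0, 12 and 10 for the G2/M targets in M2, M3 and M4. The counts in M2 also went to 0 without either M2 library.

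**Figure D4:**
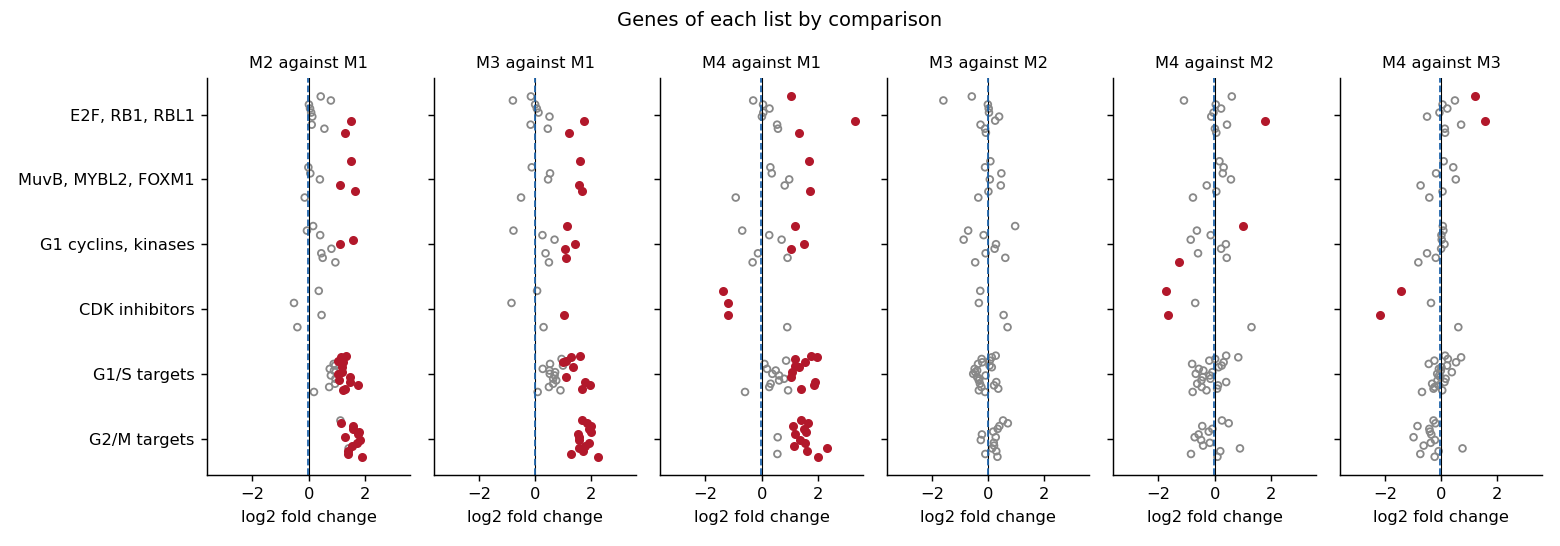
Log2 fold change of each tested gene (points) by list and comparison, with called genes in filled red, others as open grey circles and the all-gene median as a dashed blue line. CCND2 and CDKN1C are left out because 0 or very few counts in some libraries put them off the axis. In the 3 panels against M1 every gene of both target lists lies right of 0 except 1 G1/S target in M4. In the other 3 panels the medians of both lists lie between -0.36 and 0.24. Of the 14 G2/M targets, 11 lie right of 0 in M3 against M2, 5 in M4 against M2 and 1 in M4 against M3.

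In the fit used here, calls among the G1/S and G2/M targets and of RBL1 were found against M1 alone. E2F7 was also past the threshold in M4 against M2 and M3, by 1.8 and 1.55 on the log2 scale. The calls among G1/S targets were also counted by the E2F word in their promoters. Against M1, 7 of 11 genes with a word and 5 of 8 without it were called in M2, 3 of 11 and 5 of 8 in M3, and 4 of 11 and 5 of 8 in M4.

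Genes tied to particular members were read in the same way. Of all genes tested, 3.37%, 13.5% and 20.7% were called in M2, M3 and M4 against M1, and 4.15% in M3 against M2. Of 9 genes of the Polycomb complex that E2F6 joins, RNF2, its ubiquitin ligase, was called once, higher in M3 than in M2 (1.07, adjusted p = 0.0137), and none was called against M1 by edgeR or DESeq2, where 1, 3 and 1 had an unadjusted p under 0.05 in M2, M3 and M4. Among the germline genes that E2F6 is known to silence, SMC1B rose in M3 and M4 against M1 (4.51 and 3.13, adjusted p = 0.00455 and 0.0106) from 0.0604 and 0.122 CPM in M1 to 2.58 and 1.64 in M3 and 0.432 and 1.19 in M4. STAG3 went down in M3 (-2.42, adjusted p = 0.0396). SUV39H1, a histone methyltransferase that RB1 can recruit, was the only one of 6 co-repressor genes called, higher in M3 and M4 than in M1 (1.03 and 1.13, adjusted p = 0.00372 and 0.00165). Among 7 apoptosis genes linked to E2F1, TP73 fell from 5.15 to 17.6 CPM in the M1 and M2 libraries to between 0.0793 and 0.476 CPM in M3 and M4 (-4.94 and -6.79 against M1, adjusted p = 0.00261 and 0.000689), and BCL2L11 also fell in both (-1.59 and -1.57, adjusted p = 0.0108 and 0.00736). PMAIP1 (NOXA) rose in M3 and M4 (1.34 and 2.81, adjusted p = 0.0196 and 0.000867). With the libraries exchanged, no germline or co-repressor gene was called against M1, and 1 and 2 of the apoptosis genes were in M3 and M4. Without 1 library, the calls of RNF2 (either M2 library), STAG3 (any M1, M2 or M3 library), SMC1B in M4 (M1 replicate 1 or M4 replicate 2), SUV39H1 in M3 (M1 replicate 2), BCL2L11 in M4 (M4 replicate 1) and PMAIP1 in M3 (either M1 library or M3 replicate 2) were lost. RNF2 was not called with the exchange. None of the 7 apoptosis genes was called in M2 against M1 by edgeR or DESeq2, and 3 had an unadjusted p under 0.05. Between M3 and M2, M4 and M2, and M4 and M3, 1, 3 and 1 of the 7 were called, beside 4.15%, 13.9% and 10.3% of all genes. TP73 was lower in M3 and in M4 than in M2, and both calls held with the libraries exchanged. PMAIP1 was higher in M4 than in M2 and M3, and BCL2L11 was lower in M4 than in M2. Of these, only PMAIP1 against M2 was still called with the exchange.

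Markers of other cell types were near 0 with 2 exceptions, the fibroblast and immune lists. Their sums differed between lines and also between replicates, within M1 for the fibroblast and within M3 for the immune markers. The summed fibroblast markers (5 genes) ranged from 8.62 to 60.1 CPM (M1), 72.4 to 74.3 (M2), 10.1 to 15.7 (M3) and 6.43 to 7.56 (M4), almost all from DCN and COL1A1, with COL1A2 at 0. The summed immune markers (4 genes) were 4.06 to 9.55 CPM (M1), 5.82 to 6.12 (M2), 6.19 to 25.1 (M3) and 39 to 51.4 (M4), carried by CD68, with CD3E at 0. The 8 epithelial markers summed to 9500 to 11000 CPM (M1), 15000 to 15200 (M2), 13100 to 14300 (M3) and 8100 to 11400 (M4). The part of these shifts in the E2F7, E2F1 and RBL1 values was not tested.

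**Figure D5:**
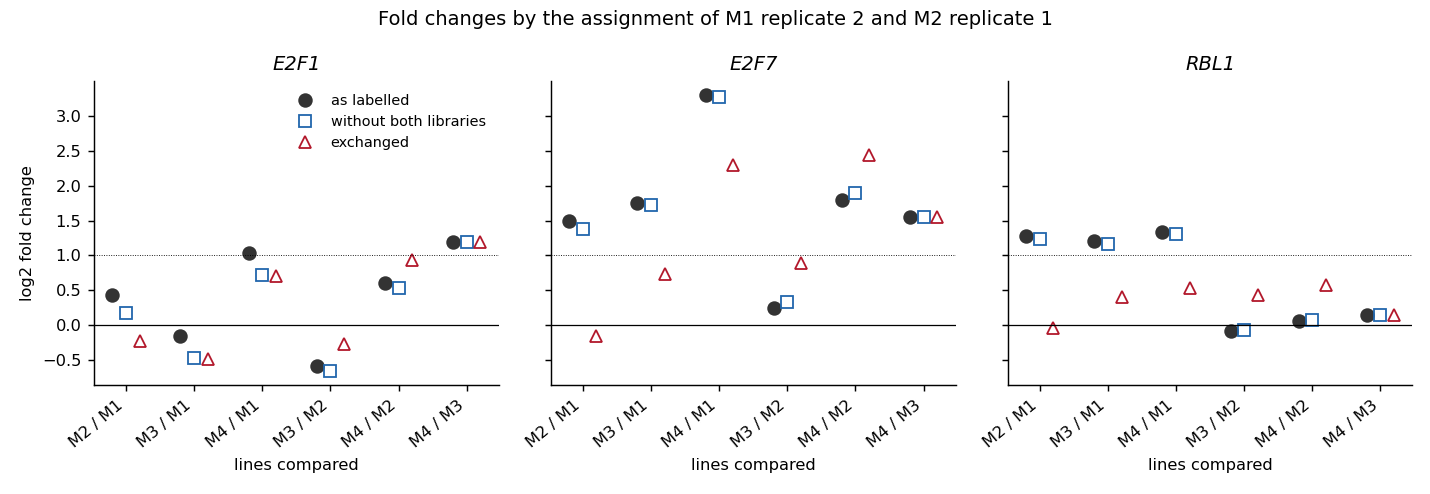
Log2 fold change of E2F1, E2F7 and RBL1 in the 6 comparisons with the libraries as labelled (filled circles), without M1 replicate 2 and M2 replicate 1 (squares) and with those 2 exchanged (triangles). Leaving the libraries out kept E2F7 and RBL1 close to their labelled values, whereas the exchange took both to about 0 in M2 against M1.

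The assignment of those 2 libraries decided the comparison of M2 with M1 and changed the size of the E2F7 differences in M4. With the exchange, the log2 fold change of E2F7 in M4 went from 3.3 to 2.29 against M1 and from 1.8 to 2.44 against M2. For E2F7 and RBL1 the libraries of 1 label lay side by side, at 8.71 and 8.36 against 25.6 and 22.7 CPM and at 8.12 and 7.79 against 19.5 and 19.1 CPM. Exchanged, each group would hold 1 low and 1 high library, and both genes would differ by close to 0. E2F7 in M4 was past the threshold against M1 and M2 under either assignment, and its comparison with M3, which uses neither library, had the same log2 fold change of 1.55 but was not called when the libraries were exchanged.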

How the data were processed

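RNA-seq libraries of M1, M2, M3 and M4 (2 biological replicates each, 3D culture) were grouped by their labels. Per the submitters' processing notes and the study's methods, the authors trimmed reads with Trimmomatic, aligned them to hg19 (GRCh37) with STAR, used Picard, and deposited expected counts per gene from RSEM with GENCODE 19. Versions and strand settings are not given in the sources used here. RSEM splits reads shared by similar genes, so such genes carry added error.

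Expected counts were rounded and fitted with edgeR 4.0.16 in R 4.3.3 (TMM scaling, filterByExpr, robust quasi-likelihood, 1 coefficient per line, all 8 libraries). DESeq2 1.42.0 was an alternative. The fit was tested on simulated data. Depth per library was 69669970 to 107350344 counts, so with 2 libraries per line the spread between cultures, more than counting error, limits precision. CPM used TMM-scaled totals. Symbols and exon lengths came from GENCODE 44 on GRCh37, which held 94.7% of the counted genes. Promoter windows were RefSeq's, and positions on GRCh37 were found by exact match.

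The members and lists were chosen with earlier results of these data known. Named were all 10 members, RBL2, TFDP1, TFDP2, MYBL2, FOXM1, CCND1, CCNE1, CCNE2, CDKN1A, CDKN2A, MKI67 and HRAS, up to 3 called genes with the largest change per list and comparison, and the 5 genes most correlated with E2F1, E2F8 and RB1. UHRF1 was not matched. A gene that this rule names is not reported here. Alternatives were RLE scaling, no filter, DESeq2, a replicate block, fitting only the 2 lines compared, adjusted p alone, exchanged libraries, each library left out and length by the longest transcript. Leaving out both exchanged libraries and the 5 Mb neighbourhoods were added after seeing the data.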

Additional observations from a re-analysis of the deposited data

How the results depend on the processing

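E2F7 stayed past the threshold in M4 against M1 and M2 under every alternative run. Of 900 member values under the alternatives, 821 moved by less than the spread, 77 moved further and 2 that were past the threshold turned sign, both with the libraries exchanged: E2F7 at -0.15 and RBL1 at -0.04 in M2 against M1. Values short of the threshold also changed sign, such as E2F1 (-0.22), E2F2 (-0.59) and RB1 (-0.05) in M2 against M1 with the exchange. Exchanged libraries gave 0, 0, 1, 0, 1 and 0 members and 0, 219, 1559, 214, 1889 and 830 genes called in M2, M3 and M4 against M1, M3 and M4 against M2, and M4 against M3. Leaving both out gave 0, 1, 2, 0, 1 and 2 members and 29, 1625, 2425, 277, 1418 and 1678 genes, where the labelled libraries gave 622, 2494, 3821, 765, 2567 and 1897. Without 1 library at a time the genes called ranged over 0 to 876, 1752 to 2298, 2425 to 3742, 83 to 1073, 927 to 2834 and 598 to 2197, and the members over 0 to 2, 2 to 2, 2 to 3, 0 to 1, 1 to 1 and 1 to 2. In M2 against M1 the genes fell to 2 without M2 replicate 1 and 0 without M2 replicate 2, with 0 members in both. No filter gave 1788 genes in M2 against M1, 1880 in M3 against M2 and 2916 in M4 against M3. DESeq2 gave 1324 and 1480 in the first 2 of these. Fitting only M1 and M3 gave 1659. Adjusted p alone gave 3918 and 5779 genes in M3 and M4 against M1, 4096 in M4 against M2 and 3091 in M4 against M3. The member E2F2 made the count in M3 against M2 equal 1 with no filter, DESeq2 or only those lines, and 2 in M4 against M2 with no filter or only those lines. By the longest transcript, E2F1 ranked 5 in M1 and 4 in M4, and E2F7 ranked 4 in M3. Replicate numbers did not pair the libraries, with deviations correlated from -0.051 to 0.206 between lines, and a replicate block left the members called at 2, 2, 3, 0, 1 and 2. The cause of these shifts was not tested. E2F8 rested on as few as 127 counts in a library, and its standard errors were near 0.482 on the log2 scale.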

Other observations

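E2F6 (chr2:11584501-11606303) lay among genes that were themselves higher in M3. The 35 other genes tested within 5 Mb of it had a median log2 fold change of 0.66 in M3 against M1 and 0.57 against M2, beside 0.08 in M2 and 0.19 in M4 against M1. E2F6 itself had 0.51 in M3 against M1. CDKN1C (p57), picked out after its values were seen, stood at 64.4 CPM in M1 replicate 1 and 0.354 CPM in M1 replicate 2, with 0.0884 and 0.142 CPM in M2 and 0.953 to 3.7 CPM in M3 and M4. DCN showed a similar gap within M1, at 34.1 and 1.62 CPM, with 60.2 and 58.6 CPM in M2.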
